A study of Mus musculus with 4 samples.

Results

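Mitochondrial ribosomal protein genes were described in splenic regulatory T (Treg) cells of mice with a Treg-cell deletion of Setd2 and of controls. Setd2 is the gene of the methyltransferase that places H3K36me3 on transcribed chromatin. The genes were taken by a rule on their names, set with earlier results of these data known. It took every gene in the deposited table whose symbol begins with Mrpl or Mrps followed by a digit. This gave 78 of 24087 genes, 49 named Mrpl for the large subunit and 29 named Mrps for the small subunit. Treg cells were sorted as CD3+CD4+YFP+ from the spleens of Foxp3Cre-YFPSetd2f/f mice (KO) and, as CTRL, of Foxp3Cre-YFPSetd2f/+ littermates, which carry 1 floxed allele, all on the C57BL/6 background and at steady state. Both groups carried the Foxp3Cre-YFP allele, in which Foxp3 drives Cre and YFP, so that KO and CTRL differed in the number of floxed Setd2 alleles. There were 2 libraries per genotype, each from approximately 1000000 cells pooled from 2 to 3 mice. The study's methods give 6 to 12 weeks as the usual age of its mice and both sexes as used, without naming those of these libraries. Values were FPKM, fragments scaled to gene length and to library size. All p values rest on the spread between these pooled samples, drawn toward that of genes of similar level, and not on the spread between single mice.

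The mitochondrial ribosome translates the few proteins that the mitochondrial genome encodes, all of them subunits of the respiratory chain and of ATP synthase. Its RNAs come from mitochondrial DNA, whereas all of its proteins are encoded in the nucleus, made in the cytosol and imported. Part of these proteins descend from the ribosome of the bacterial ancestor and part were added in mitochondria, and Treg cells rely on mitochondrial respiration for their suppressive function.

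The targeted gene was read first. Setd2 stood at 23.4 (CTRL 1), 25.3 (CTRL 2), 21.3 (KO 1) and 19.5 FPKM (KO 2). KO values were the lower ones, but the log2 fold change of -0.24 (SE 0.076, adjusted p = 0.0970) did not pass the threshold, and it was -0.15 (adjusted p = 0.244) with the trend of fold change with exon length removed. A gene-level value also counts reads from exons outside the floxed segment, whose position is not given in the sources used here. By flow cytometry, the paper found Setd2 protein sufficiently abrogated in splenic KO Treg cells. By western blot, it found H3K36me3 drastically reduced there. The paper also speaks of 1 deficient Setd2 allele in CTRL Treg cells, so CTRL is not wild type for Setd2. Reads recovered from the FPKM steps came to at least 29986116 to 32684687 per library. Summed over the markers fixed for each cell type, Treg markers ran from 1068 to 1178 FPKM and T cell markers from 1177 to 1333 FPKM (Trac was not matched). Myeloid markers summed to 167 and 220 FPKM in CTRL 1 and KO 1 and to 103 and 83.9 FPKM in CTRL 2 and KO 2, B cell markers to 18.8 to 32.8 FPKM, CD8 markers to 8.49 to 11.4 FPKM and erythroid markers to 2.22 to 20.0 FPKM (Hbb-bt was not matched). None of these markers passed the test or was at 0 in all libraries, and their part in the results was not tested. CTRL 1 held 19100 genes above 0, against 15913 to 16410 in the other libraries.

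Promoters are shown for the called genes with the 2 highest and the 2 lowest fold changes (Mrps5, which fell, and Mrpl27, the smallest rise), as far as they had an entry, with the 250 bases before the RefSeq start site (GRCm38.p6). Capitals mark the letters CCGGAAG, the core bound by ETS factors such as GABP, a known regulator of nuclear genes for mitochondrial proteins. Mrpl43 (chr19:45006443-45006692, minus strand) and Mrpl27 (chr11:94653541-94653790, plus strand) were higher in KO, and Mrps5 (chr2:127587176-127587425, plus strand) was lower:
Mrpl43: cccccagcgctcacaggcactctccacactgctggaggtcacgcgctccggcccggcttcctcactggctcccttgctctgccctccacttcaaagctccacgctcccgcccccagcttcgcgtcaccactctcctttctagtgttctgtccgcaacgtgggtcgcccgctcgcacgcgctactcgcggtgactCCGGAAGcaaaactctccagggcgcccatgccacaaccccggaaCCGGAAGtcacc
Mrpl27: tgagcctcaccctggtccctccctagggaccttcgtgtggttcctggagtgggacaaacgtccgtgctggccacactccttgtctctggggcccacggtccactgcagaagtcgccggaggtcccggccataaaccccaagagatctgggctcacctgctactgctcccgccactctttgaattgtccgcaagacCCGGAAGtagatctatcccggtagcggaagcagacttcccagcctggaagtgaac
Mrps5: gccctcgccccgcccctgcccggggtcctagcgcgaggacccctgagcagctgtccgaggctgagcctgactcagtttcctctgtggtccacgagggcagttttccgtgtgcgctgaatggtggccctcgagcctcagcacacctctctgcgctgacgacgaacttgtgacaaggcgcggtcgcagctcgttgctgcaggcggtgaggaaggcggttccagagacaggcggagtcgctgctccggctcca
The Mrpl43 window held the letters at 56 and 12 bases before the start and the Mrpl27 window at 55 bases before it, while the Mrps5 window held none. Mrpl4, the other gene chosen by the same rule, was not in the table used.

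Across the whole family, the 300-base RefSeq promoters (250 bases before and 50 after the start) of 69 of the 78 genes could be read, 75 promoters in all. CCGGAAG, on either strand, was present in 26 of the 75 (34.7%) and in 8.86% of all 32851 promoters. TGCGCA, the core of the NRF1 motif, was present in 22 (29.3%) against 7.76%, and AAGATGGCG, a YY1 motif, in 8 (10.7%) against 1.40%. The E-box CACGTG, bound by Myc among others, was present in 7 (9.33%) against 7.15%. Median GC content of the promoters was 58.7% for Mrp genes and 52.7% for all genes. Of the 6 genes with an entry that passed the test in KO, Mrpl18, Mrpl27, Mrpl34 and Mrpl43 held CCGGAAG, Mrpl14 and Mrps5 did not, and none of the 6 held TGCGCA. These matches are letters in a window and no measure of binding.

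KO was then compared with CTRL for each gene by limma over the 11399 genes with at least 1 FPKM in at least 2 libraries, with adjusted p under 0.05 as the threshold. Of the 78 Mrp genes, 77 passed the filter on low values. In KO, 6 of these 77 (7.79%) were higher, beside 5.10% of all genes tested, and 1 (1.30%) was lower, beside 4.65% of all genes. The 6 that rose all carry large-subunit names (Mrpl43, Mrpl4, Mrpl34, Mrpl18, Mrpl14 and Mrpl27), and the 1 that fell was Mrps5. With bulk RNA, fewer cells of a type and less RNA per cell cannot be told apart. Without any 1 of CTRL 1, CTRL 2, KO 1 or KO 2 no Mrp gene passed, nor more than 1 of all genes, and without the filter on low values none of the 19888 genes then tested passed. With 1 library left out, the median log2 fold change ran from 0.053 to 0.093 for Mrpl genes and from -0.041 to 0.076 for Mrps genes. At an unadjusted p under 0.05, limma gave 19 Mrp genes higher and 7 lower with no filter. The matching counts over all genes are not given here. With all libraries and the filter, 20 of the 77 Mrp genes were higher and 8 lower at that p. Of all 11399 genes tested, 1855 were higher and 2099 lower.

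**Figure D1:**
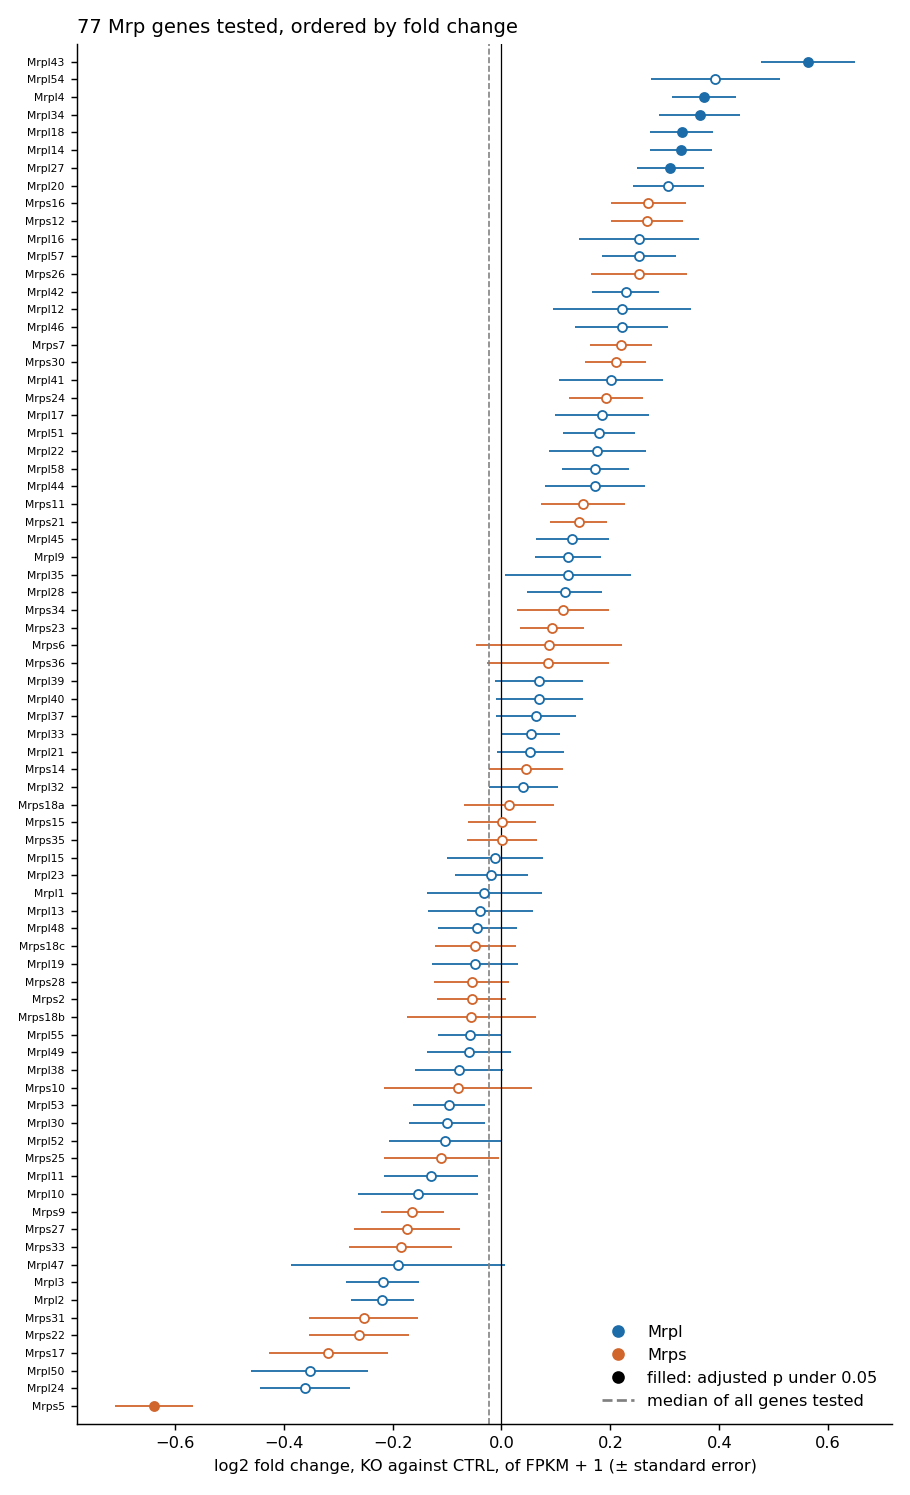
Log2 fold change (KO against CTRL, of FPKM + 1) of the 77 Mrp genes tested, in order, with standard errors; blue points are Mrpl genes, orange points Mrps genes, and filled points passed adjusted p under 0.05. The changes ran from -0.64 for Mrps5 to 0.56 for Mrpl43, and the dashed line marks the median of all genes tested, -0.022.

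Mrps5, counterpart of a bacterial protein near the entry of the messenger RNA channel, was the only Mrp gene called lower at the threshold, among 18 in which KO lay below CTRL without overlap, beside 35.5% of all genes tested. It lies on chromosome 2 at 127587222 to 127606829 (GRCm38, plus strand). Its level was 27.6 and 26.2 FPKM for the CTRL pair and 16.2 and 17.7 FPKM for the KO pair. Both KO libraries were well below both CTRL libraries, which differed from each other by little. Its log2 fold change was -0.64 (SE 0.072, 95% interval -0.82 to -0.45, adjusted p = 0.0343), a KO mean of 0.630 times the CTRL mean. Reads of at least 819 per library lay behind each of its values.

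Mrpl43, a large-subunit protein without a bacterial counterpart, showed the largest increase. It lies on chromosome 19 at 45004829 to 45006442 (minus strand). Its level was 25.8 and 29.9 FPKM for the CTRL pair and 40.8 and 42.3 FPKM for the KO pair. The groups did not overlap, and the mean moved from 27.9 ± 2.96 FPKM in CTRL to 41.5 ± 1.08 FPKM in KO (SD, n = 2). The log2 fold change was 0.56 (SE 0.086, 95% interval 0.34 to 0.78, adjusted p = 0.0367).

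The other 5 genes that rose did so by less, and all 5 are counterparts of bacterial proteins. Mrpl4, whose bacterial counterpart lines the tunnel through which the new protein leaves the ribosome, stood at 47.5, 49.8, 64.6 and 61.8 FPKM in CTRL 1, CTRL 2, KO 1 and KO 2 (log2 fold change 0.37, SE 0.059, adjusted p = 0.0378). Mrpl34 stood at 30.7 and 29.5 FPKM (CTRL) against 36.9 and 41.2 FPKM (KO) (0.36, SE 0.074, adjusted p = 0.0481). In neither gene did a KO library reach down to a CTRL library. Mrpl18, whose bacterial counterpart binds 5S ribosomal RNA, stood at 46.2 and 45.1 FPKM (CTRL) against 56.0 and 59.4 FPKM (KO) (0.33, SE 0.058, adjusted p = 0.0405). Mrpl14, a protein of the face toward the small subunit, stood at 24.3 and 25.1 FPKM (CTRL) against 31.0 and 31.6 FPKM (KO) (0.33, SE 0.058, adjusted p = 0.0405). Mrpl27, whose bacterial counterpart reaches toward the peptidyl transferase centre, stood at 21.7 and 22.5 FPKM (CTRL) against 28.2 and 27.0 FPKM (KO) (0.31, SE 0.061, adjusted p = 0.0443). Their positions (GRCm38) are chromosome 9 from 21002738 to 21008839 for Mrpl4, chromosome 8 from 71464959 to 71465747 for Mrpl34, chromosome 17 from 12911349 to 12916345 for Mrpl18 and from 45686322 to 45698495 for Mrpl14, and chromosome 11 from 94653767 to 94660089 for Mrpl27. All 5 kept the groups apart, with KO means 1.25 to 1.30 times the CTRL means.

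**Figure D2:**
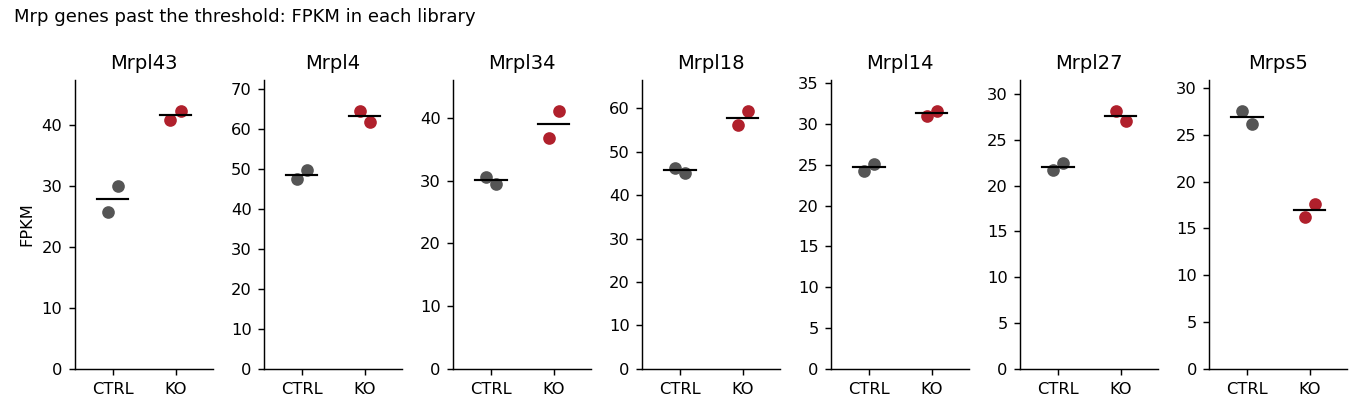
FPKM of the 7 Mrp genes past the threshold in each library, with replicate 1 to the left of replicate 2, bars at the group means and axes from 0. For Mrpl43, Mrpl4, Mrpl34, Mrpl18, Mrpl14 and Mrpl27 both KO points lie above both CTRL points, and for Mrps5 both lie below (16.2 and 17.7 against 27.6 and 26.2 FPKM).

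How far a call rested on the processing differed between these genes. Mrps5 and Mrpl43 passed under every alternative that kept all 4 libraries and a filter on low values. With 1 library left out, the log2 fold change of Mrps5 ran from -0.70 to -0.58 and that of Mrpl43 from 0.46 to 0.67. Mrpl4 passed under the same alternatives except the fit without an intensity trend (adjusted p = 0.0540). Removing the trend of fold change with exon length left 2 genes higher, Mrpl4 and Mrpl43, and limma-voom on the recovered reads left 3, Mrpl18, Mrpl4 and Mrpl43. Mrpl34 also lost its call under quantile normalization (adjusted p = 0.0512) and with the GC trend removed (adjusted p = 0.0754).

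Genes just outside the threshold stood on both sides. Mrpl20 had a log2 fold change of 0.31 at adjusted p = 0.0514. Mrpl54, a large-subunit protein of mitochondria with the second largest value, stood at 37.8 and 47.7 FPKM (CTRL) against 54.7 and 57.4 FPKM (KO) (0.39, SE 0.118, adjusted p = 0.0889). The distance between its CTRL libraries was more than between its KO libraries. Mrpl24 stood at 67.3 and 61.6 FPKM (CTRL) against 47.1 and 52.9 FPKM (KO) (-0.36, SE 0.082, adjusted p = 0.0558), and Mrpl50 at 9.73 and 8.06 FPKM (CTRL) against 6.50 and 6.95 FPKM (KO) (-0.35, SE 0.108, adjusted p = 0.0921). Neither passed, although their groups did not overlap, and Mrpl24 passed as lower under several alternatives, among them limma-voom on recovered reads (-0.37, adjusted p = 0.0398).

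The most abundant Mrp transcripts did not pass the test in either direction. Mrpl52, the highest, stood at 133, 124, 109 and 131 FPKM in CTRL 1, CTRL 2, KO 1 and KO 2, with overlapping groups (-0.10, SE 0.103, adjusted p = 0.522). Mrps21 stood at 73.6 and 71.9 FPKM (CTRL) against 79.3 and 81.3 FPKM (KO) (0.14, SE 0.052, adjusted p = 0.129). Mrps16 stood at 49.8 and 54.8 FPKM (CTRL) against 62.0 and 64.4 FPKM (KO) (0.27, SE 0.068, adjusted p = 0.0662). In both of these small-subunit genes with bacterial counterparts the KO libraries were the higher ones. Mrpl30 stood at 72.4, 66.7, 62.5 and 67.1 FPKM in the same order, Mrpl23 at 63.9, 70.5, 65.7 and 66.8 FPKM, and Mrpl33 at 63.4, 62.9, 64.1 and 67.1 FPKM. Mrpl23, a protein at the exit of the tunnel, had a log2 fold change of -0.018 (95% interval -0.19 to 0.15), and its sign changed under median-ratio scaling. That of Mrpl30 was -0.10 and that of Mrpl33 0.054, which turned negative under quantile normalization, and neither passed the test.

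Mrpl36, counterpart of the smallest protein of the bacterial large subunit, was the 1 gene below the filter. It was listed at 0.0338, 0.0320, 0.0314 and 0.0313 FPKM in CTRL 1, CTRL 2, KO 1 and KO 2. These values equal the same recovered number of reads in each library, at least 1, so no fold change is given. It shares 30 exon bases with Ndufs6 on the other strand, and the starts of both genes lie 29 bases apart.

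Taking the family as 1 list, 45 of 77 Mrp genes (58.4%) had a fold change above 0, beside 46.2% of all genes tested, and the median log2 fold change was 0.054 beside -0.022. KO lay above CTRL without overlap in 33 Mrp genes and below in 18, while 29.0% and 35.5% of all genes tested did so. The remaining 26 overlapped. Mrp genes were of middling level, with a median of 22.5 FPKM (12.5 for all genes tested) and a range of 2.22 to 124 FPKM. Their transcripts were shorter, with a median exon length of 2533 bases against 4238, and their standard errors smaller, with a median of 0.075 against 0.087.

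By subunit name, 6 of 48 Mrpl genes (12.5%) were higher and 0 lower, with a median of 0.069. Of 29 Mrps genes, 0 were higher and 1 (3.45%) lower, with a median of 0.0018. Over all genes tested, 5.10% were higher and 4.65% lower. At an unadjusted p under 0.05, 13 of the 48 Mrpl genes were higher and 4 lower. Of the 29 Mrps genes, 7 were higher and 4 lower at that p, beside 1855 and 2099 of all 11399 genes tested. KO lay above CTRL without overlap in 23 Mrpl and 10 Mrps genes and below in 8 and 10. Over all genes tested, 29.0% lay above and 35.5% below. The difference between the subunit names was not tested. The Mrpl median stayed above 0 under all alternatives run, whereas the Mrps median turned negative when libraries were set to the same sum of FPKM (-0.012), under limma-voom (-0.0033) and without KO 2 (-0.041). The names are not a perfect guide to the subunit, since Mrps30 and Mrps18a are found in the large subunit and Mrps36 is known as a part of the 2-oxoglutarate dehydrogenase complex.

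Split by descent, 45 genes with bacterial counterparts were tested, of which 5 (11.1%) were higher and 1 (2.22%) lower, with a median of 0.045. Of 31 genes classed as particular to mitochondrial ribosomes, 1 (Mrpl43, 3.23%) was higher and 0 lower, with a median of 0.069. This class holds Mrps18a and Mrps18b, although their paralogue Mrps18c is in the class with bacterial counterparts. Over all genes tested, 5.10% were higher and 4.65% lower. At an unadjusted p under 0.05, 11 of the 45 genes were higher and 6 lower. Of the 31 genes, 9 were higher and 2 lower at that p, beside 1855 and 2099 of all 11399 genes tested. Mrps36 is in neither list, and the difference between the classes was not tested.

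**Figure D3:**
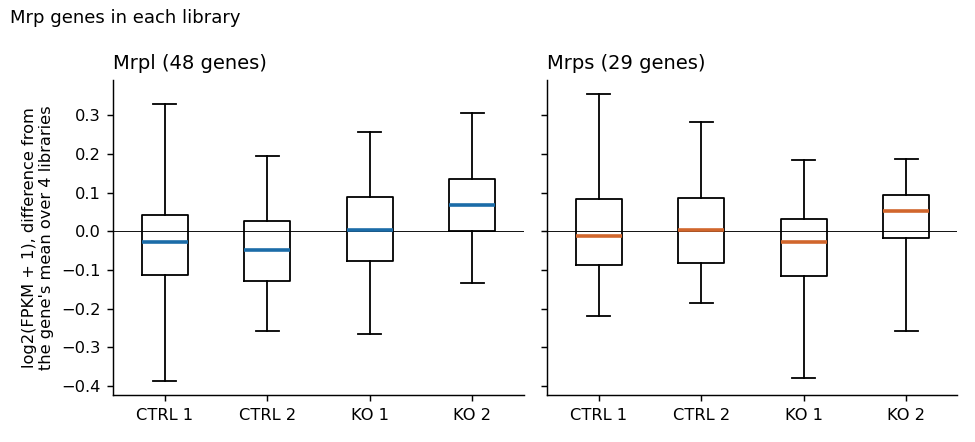
Difference of log2(FPKM + 1) in each library from the gene's mean over the 4 libraries, for 48 Mrpl and 29 Mrps genes; boxes span the quartiles, lines mark medians and whiskers reach the lowest and highest gene. KO 2 has the highest median in both groups of genes (0.067 and 0.054), and KO 1 lies near 0 for Mrpl (0.0047) and below it for Mrps (-0.027).

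The 2 KO libraries did not hold the family at the same level. The summed FPKM of all Mrp genes was 2095 and 2088 in the CTRL pair, 2156 in KO 1 and 2260 in KO 2, or 0.448%, 0.449%, 0.459% and 0.478% of all FPKM. KO 2 was above KO 1 in 57 of 77 Mrp genes (74.0%), beside 53.6% of all genes tested, whereas CTRL 2 was above CTRL 1 in 40 of 77 (51.9%). Nuclear genes of the respiratory chain and ATP synthase (75.3% of 77) and cytosolic ribosomal protein genes (77.9% of 77) were also mostly higher in KO 2 than in KO 1. The distance of KO 2 from KO 1 in summed FPKM thus exceeded that of KO 1 from either CTRL library. The myeloid marker sum was 220 FPKM in KO 1 and 83.9 FPKM in KO 2, and its part in this distance was not tested.

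Many Mrp genes lie close to or across another gene. Among the 78, 32 (41.0%) had a protein-coding gene on the opposite strand that starts within 1000 bases, against 17.4% of the 10668 protein-coding genes tested. Exon bases were shared with another gene of the table by 23, of which 22 were tested. Of these 22, 4 (18.2%) were higher (Mrpl43, Mrpl18, Mrpl14 and Mrpl27) and 0 lower, with a median log2 fold change of 0.136. Of the 55 that share none with a gene of the table, 2 (3.64%) were higher (Mrpl4 and Mrpl34) and 1 (1.82%) lower (Mrps5), with a median of 0.014. Some of the 55 share exon bases with annotated genes outside the table, as Mrpl53 does with Gm42688 (88.0% of its exons). Over all genes tested, 5.10% were higher and 4.65% lower, and the difference between these sets was not tested. Whether strand was used in counting, and how reads over exons of 2 genes were handled, is not given in the sources used here. Reads in shared bases may thus count for either gene or for neither.

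Mrpl43 shares 507 bases, 33.4% of its exons, with Twnk, the helicase of mitochondrial DNA. Twnk stood at 6.29 and 6.51 FPKM (CTRL) against 4.66 and 4.61 FPKM (KO) (log2 fold change -0.39, SE 0.080, adjusted p = 0.0473), and so fell where Mrpl43 rose. Mrpl18 shares 141 bases with Tcp1, a subunit of the cytosolic chaperonin, whose fold change was 0.090 (adjusted p = 0.402). Mrpl14 shares 106 bases with Tmem63b (-0.31, adjusted p = 0.0857). Mrpl27 shares 75 bases with Eme1, a subunit of a DNA endonuclease, which stood at 2.22 and 1.61 FPKM (CTRL) against 3.03 and 3.27 FPKM (KO) (0.52, adjusted p = 0.0743). Mrpl24 shares 594 bases with Rrnad1, which was lower (-0.44, adjusted p = 0.0385). Partners of called genes thus lay on both sides of 0. Windows of 100 bases that also stand in the transcript of another gene made up 4.34% of those of Mrps5 (mostly Gm13328), 12.6% of those of Mrpl27 (mostly Gm6304) and 8.95% of those of Mrpl23 (mostly its pseudogene Mrpl23-ps1). The highest shares were 75.6% for Mrpl53 (mostly Gm42688) and 31.2% for Mrps34 (mostly Nme3), and values of genes with shared windows are less certain.

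**Figure D4:**
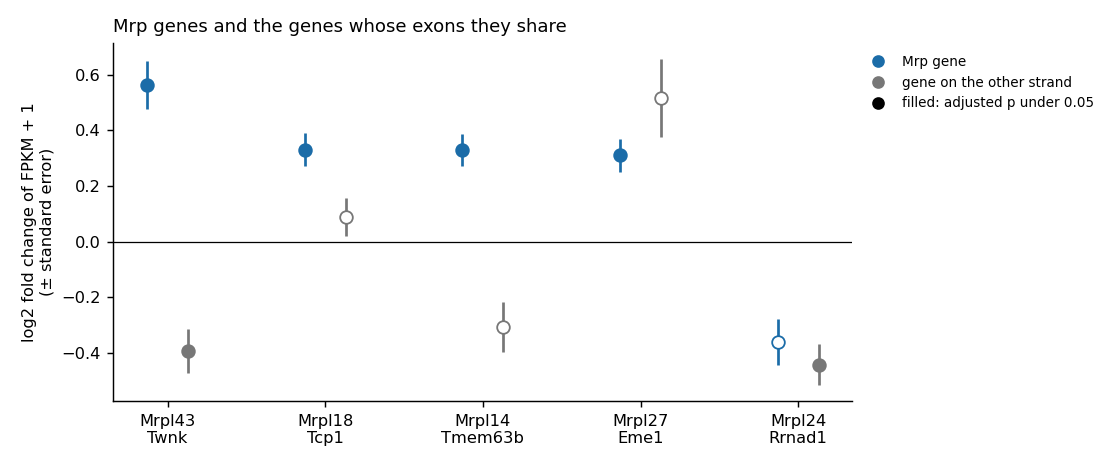
Log2 fold change (FPKM + 1, with standard errors) of 5 Mrp genes in blue and of the gene on the other strand that shares exon bases with each in grey; filled points passed adjusted p under 0.05. Mrpl43 and Twnk lie on opposite sides of 0 (0.56 and -0.39), and Mrpl24 and Rrnad1 on the same side (-0.36 and -0.44).

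Mrps5 shares no exon bases with another gene of the table, but Zfp661, a zinc finger gene, starts 128 bases away on the opposite strand. Zfp661 stood at 1.62 and 1.49 FPKM (CTRL) against 0.512 and 0.793 FPKM (KO) (-0.63, SE 0.147, adjusted p = 0.0578). Its KO libraries, like those of Mrps5, were both below CTRL, but it did not pass. Apba3, which starts 26 bases from Mrpl54, had a fold change of 0.22 (adjusted p = 0.103), and Zfp189, which starts 83 bases from Mrpl50, one of -0.33 (adjusted p = 0.149).

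Across the 77 Mrp genes the fold change fell with exon length (Spearman rho -0.319, over genes that share libraries) and rose with the GC content of the transcript (0.325) and with the mean level (0.336). Over all genes tested the same correlations were -0.18, 0.24 and 0.143. These are across genes, which are not independent replicates, and are given as descriptions.

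The rest of the mitochondrial translation apparatus was read from lists made by function, with earlier results of these data known. Mitoribosomal proteins with other names numbered 5, of which 1 (20%) was higher and 0 were lower, beside 5.10% and 4.65% of all genes tested. Their median was 0.15. Aurkaip1, a small-subunit protein of mitochondria also known as mS38, stood at 47.1 and 50.03 FPKM (CTRL) against 61.1 and 64.96 FPKM (KO) (0.37, SE 0.064, adjusted p = 0.0400). Its groups did not overlap. The others were Gadd45gip1 (0.29, adjusted p = 0.1003), Chchd1 (0.15), Dap3 (-0.042) and Ptcd3 (-0.18), none past the threshold.

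Factors that assemble the mitochondrial ribosome held 1 gene higher and 2 lower of 26 (3.85% and 7.69%, beside 5.10% and 4.65% of all genes tested), with a median of -0.17. Mpv17l2, needed for the large subunit, stood at 27.2 and 25.8 FPKM (CTRL) against 34.0 and 38.5 FPKM (KO) (0.43, adjusted p = 0.0422). Gtpbp10, a GTPase of large-subunit maturation, fell from 4.18 and 3.94 FPKM to 2.60 and 2.08 FPKM (-0.60, adjusted p = 0.0447), and Fastkd2, a binder of the large ribosomal RNA, from 6.07 and 5.64 FPKM to 3.95 and 4.21 FPKM (-0.43, adjusted p = 0.0486). With the GC trend removed none of Mpv17l2, Gtpbp10 and Fastkd2 passed (adjusted p = 0.0771, 0.0663 and 0.0718).

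Factors of mitochondrial translation and RNA handling held 1 gene higher and 2 lower of 17, with a median of -0.10. These were 5.88% and 11.8%, beside 5.10% and 4.65% of all genes tested. Tufm, the elongation factor that brings tRNA to the ribosome, stood at 46.7 and 48.0 FPKM (CTRL) against 60.3 and 60.1 FPKM (KO) (0.34, SE 0.052, adjusted p = 0.0374). Tefm, which keeps mitochondrial transcription going, fell from 3.72 and 3.36 FPKM to 2.02 and 2.17 FPKM (-0.55, adjusted p = 0.0430), and Pnpt1, a mitochondrial exoribonuclease, from 21.8 and 21.0 FPKM to 16.7 and 17.2 FPKM (-0.32, adjusted p = 0.0440). Tufm is the most abundant of these. Among 20 mitochondrial tRNA synthetases and amidotransferase subunits, 0 were higher and 1 (5%) lower, beside 5.10% and 4.65% of all genes tested. At an unadjusted p under 0.05, 1 of the 20 was higher and 6 lower, beside 1855 and 2099 of all 11399 genes tested. The median was -0.16. The gene called lower was Gatc, a subunit of the enzyme that makes glutaminyl-tRNA in mitochondria. It fell from 9.57 and 10.3 FPKM to 6.20 and 6.16 FPKM (-0.61, SE 0.077, adjusted p = 0.0346).

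**Figure D5:**
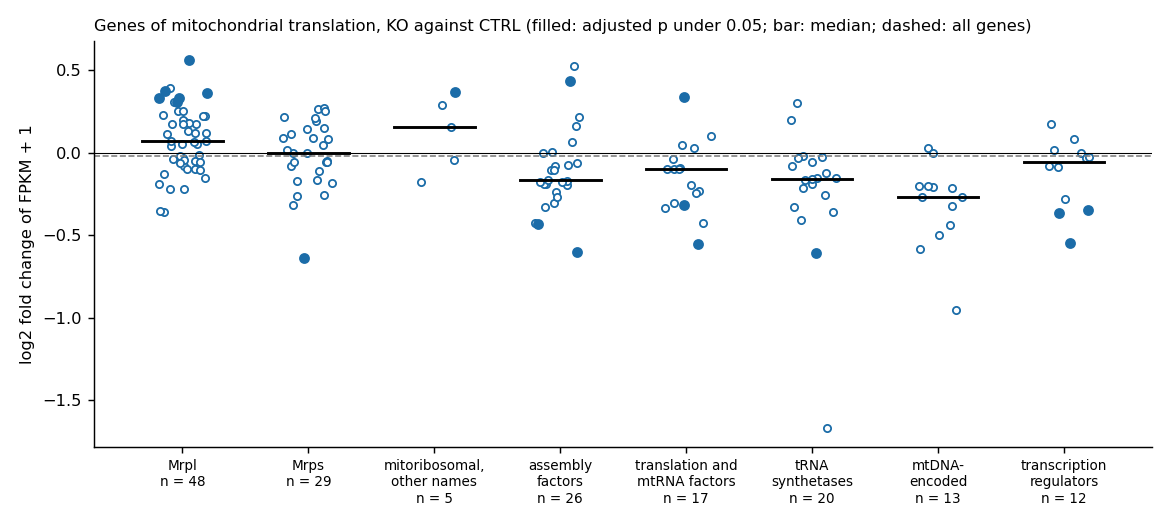
Log2 fold change (FPKM + 1) of each tested gene in 8 lists, with bars at the medians, filled points for adjusted p under 0.05 and a dashed line at the median of all genes. The Mrpl median (0.069) and that of mitoribosomal proteins with other names (0.15) lie above 0 and those of the assembly, translation, synthetase and mtDNA-encoded lists below it (-0.17, -0.10, -0.16 and -0.27); the lowest point, Lars2 at -1.67, rests on CTRL 1 (124 FPKM, against 10.4 in CTRL 2).

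The 13 protein-coding genes of mitochondrial DNA, the messages that this ribosome translates, gave no call, with 6 lower and 0 higher at an unadjusted p under 0.05. Of all 11399 genes tested, 2099 were lower and 1855 higher at that p. The 6 were CYTB, ND2, ND3, ND4, ND4L and ND5, each lower in both KO libraries than in either CTRL library. ND4 stood at 1802 and 1781 FPKM (CTRL) against 1624 and 1493 FPKM (KO). KO lay below CTRL without overlap in 9 of the 13 and above in 0, beside 35.5% and 29.0% of all genes tested. The median was -0.27. COX2 stood at 277, 144, 139 and 144 FPKM in CTRL 1, CTRL 2, KO 1 and KO 2. COX3 stood at 106, 51.0, 52.1 and 45.8 FPKM, so both changes rested mainly on CTRL 1. The median deviation from the gene's mean was 0.21 and 0.082 in the CTRL pair, -0.067 in KO 1 and -0.17 in KO 2. ND3, a subunit of complex I, stood at 27.6, 19.2, 9.44 and 13.9 FPKM (-0.95, SE 0.232, adjusted p = 0.0622). The libraries were made with oligo(dT) beads, and these genes overlap and share long precursor RNAs, so their values are not independent.

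The fixed list of regulators of nuclear mitochondrial genes held 12 tested genes of 13, since Ppargc1a fell below the filter. Of these, 0 were higher and 3 (25%) lower, beside 5.10% and 4.65% of all genes tested. At an unadjusted p under 0.05, 0 of the 12 were higher and 4 lower, beside 1855 and 2099 of all 11399 genes tested. The median was -0.055. Myc, which drives ribosome production, fell from 65.4 and 64.9 FPKM in CTRL to 41.3 and 47.6 FPKM in KO (-0.54, SE 0.082, adjusted p = 0.0355). Pprc1, a coactivator of the PGC-1 family, fell from 14.4 and 14.2 FPKM to 10.6 and 11.2 FPKM (-0.36, adjusted p = 0.0424), and Gabpb2, a subunit of the ETS factor GABP, from 27.4 and 28.0 FPKM to 21.2 and 22.0 FPKM (-0.35, adjusted p = 0.0394). All 3 were lower in both KO libraries than in either CTRL library, and Pprc1 shares 177 exon bases with Ldb1 on the other strand. Of the 11 genes called in these related lists, 7 passed with the GC trend removed (lost were Fastkd2, Gtpbp10, Mpv17l2 and Pnpt1) and 6 with the exon length trend removed (lost were Aurkaip1, Fastkd2, Gabpb2, Gtpbp10 and Pprc1). Under quantile normalization 7 passed (lost were Fastkd2, Pnpt1, Pprc1 and Tefm), and without the intensity trend 4 did (Gatc, Gtpbp10, Myc and Tefm). As for the Mrp genes, none of the 11 passed with 1 library left out or with no filter.

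Against the most similar groups, the Mrp genes lay in between by median log2 fold change (0.054) and share called higher (7.79%). Of 77 cytosolic ribosomal protein genes tested, 0 were higher and 7 (9.09%) lower, with a median of -0.16. Of 77 nuclear genes of the respiratory chain and ATP synthase, 10 (12.99%) were higher and 1 (1.30%) lower, with a median of 0.14. The share lower was the same for the Mrp genes (1 of 77). Over all genes tested, 5.10% were higher and 4.65% lower. At an unadjusted p under 0.05, 2 cytosolic genes were higher and 32 lower, and 26 respiratory genes were higher and 4 lower. For Mrp genes these counts were 20 and 8, beside 1855 and 2099 of all 11399 genes tested. The differences between these lists were not tested.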

How the data were processed

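RNA-seq of oligo(dT)-selected RNA was measured in 2 CTRL and 2 KO libraries, as paired reads of 150 bp. Per the labels and the methods, the authors aligned them to mm10 by HISAT2 (2.2.1), obtained gene counts from featureCounts (2.0.1) and deposited FPKM per gene; their count test was not used. The gene length behind the FPKM and the use of strand are not given in the sources used here. Control columns named WT were read as the CTRL libraries with the same number. From the FPKM, KO was compared with CTRL by limma (3.58.1, R 4.3.3; lmFit and eBayes with intensity trend) on log2(FPKM + 1), over the 11399 genes that reached 1 FPKM in 2 or more libraries, two-sided, with Benjamini-Hochberg adjustment. All fold changes are on that scale, which understates changes of weak genes. The script was tested on simulated data.

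GENCODE vM21 (GRCm38) gave gene positions, exon overlaps, length and GC content, and RefSeq the promoters. Whole-number steps in the FPKM gave lower bounds of the reads per value, whole to a tolerance of 0.001 for 19887 of 19888 genes. The recovered reads summed to at least 29986116 (CTRL 1), 31907250 (CTRL 2), 32531120 (KO 1) and 32684687 (KO 2). Standard errors came from the spread between 2 libraries per group, drawn by eBayes toward that of genes of similar level.

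Named Mrp genes were those past the threshold, the 6 with the highest mean FPKM, the 3 with the largest and the 3 with the lowest fold change, and any below the filter; in the related lists, genes past the threshold were named. Mrpl20, Lars2, the genes of mitochondrial DNA, the genes next to Mrp genes and the other members named were chosen after their values were seen. The members and lists were chosen with earlier results of these data known. Protein sequences were not used here.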

Additional observations from a re-analysis of the deposited data

How the results depend on the processing

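Alternatives changed the pseudocount (0.1), the filter, the scaling, the variance model, the count of libraries, and trends with exon length or GC content. With any 1 library left out, 0 to 1 of all genes were higher and 0 to 1 lower, Mrp genes gave 0 to 0 in either direction, and the Mrps median (0.0018) ran from -0.041 to 0.076. The arm left with 1 library was taken to vary like the other. With no filter, where 19888 genes were tested, 0 passed in either direction. For other changes of a call the cause was not tested. All genes higher (581) became 315 without the intensity trend, and all genes lower (530) became 352 with the exon length trend removed and 1027 under limma-voom on recovered reads. Mrp genes higher (6) became 1 without the intensity trend (Mrpl43), 2 with the exon length trend removed and 3 under limma-voom, beside 8 with the GC trend removed (Mrpl20, Mrpl42 and Mrps30 gained, Mrpl34 lost at adjusted p = 0.0754) and 5 under quantile normalization (Mrpl34 lost, 0.0512). Mrp genes lower (1) became 2 with mean FPKM above 5, the same sum of FPKM, quantile normalization, robust eBayes, the exon length trend removed and limma-voom (each Mrpl24 and Mrps5) and with the GC trend removed (Mrpl2 and Mrps5). The Mrpl median (0.069) became 0.11 with the GC trend removed. With the replicate block, 968 genes were higher and 805 lower, and 9 Mrp genes were higher and 2 lower (Mrpl20, Mrpl54 and Mrps16, and Mrpl24, were added). Same-numbered libraries deviated together with Pearson r 0.342 and Spearman rho 0.055 over genes. Whether they also shared litters or a preparation is not given in the sources used here. Myeloid marker sums were 167 and 220 FPKM in CTRL 1 and KO 1, against 103 and 83.9 FPKM in CTRL 2 and KO 2. B cell and erythroid sums were also higher in both libraries numbered 1, CD8 sums were lower, and Treg sums did not split by number. T cell sums were lower in the library numbered 1 within each genotype (1292 against 1333 FPKM in CTRL, 1177 against 1248 FPKM in KO). The cause was not tested. Fold changes of 3 genes near 0 changed sign: Mrpl23 (-0.018) became 8.983e-05 with median-ratio scaling, 0.0055 with the exon length trend removed and -0.088 to 0.051 with 1 library left out, Mrpl33 (0.054) became -0.016 with quantile normalization, and Mrpl52 (-0.10) ran from -0.24 to 0.030 with 1 library left out. Of the 7 calls, 7 held with pseudocount 0.1, mean FPKM above 5, median-ratio scaling, the same sum, robust eBayes and the replicate block. The share of higher among called genes was 52.3%, and 46.8% to 58.1% under other scalings. At least 106 reads lay behind each value of a tested Mrp gene.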
